A study of Homo sapiens with 20 samples.

Results

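The neighbourhood of IRF9 on chromosome 14 was described as 10 genes that lie side by side: PSME1, PSME2, RNF31, IRF9, REC8, IPO4, TM9SF1, MDP1, NEDD8 and TINF2. With 10 kb around their GENCODE bounds they form 1 interval of 126.5 kb (hg19, chr14:24595372-24721869). Of 19561 named protein-coding genes in the annotation these are 10, and of 224475 sites that held a peak in any list, 20 lay in the interval. Binding of STAG1, STAG2, CTCF and SMC1A had been measured by ChIP-seq in M14 cells, an established human melanoma line, here with a doxycycline-inducible shRNA against STAG2. WT cells carried the same construct without doxycycline, and STAG2-KD cells were given doxycycline for 5 days, which the labels state for replicate 1 only. Cells of replicate 1 were kept under puromycin in both conditions. With 2 libraries per antibody and condition there were 16 lists. Nothing says whether the replicates were separate cultures, and the 2 sets differ in extraction and size selection, so WT and STAG2-KD were compared within a replicate. No list measures STAG2 transcript or protein, so the knockdown itself could not be checked in them. The whole STAG2 list went from 79115 to 58521 peaks in replicate 1 and from 119021 to 106203 in replicate 2.

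Cohesin is a ring that holds chromatin loops together, and it is built on SMC1A and the kleisin RAD21 with either STAG1 or STAG2 as the peripheral subunit. Cohesin often halts where CTCF is bound to DNA, so CTCF and cohesin peaks commonly lie together at loop anchors and at many promoters. IRF9 is the DNA-binding subunit of the complex with STAT2 that carries type I interferon signals to interferon-stimulated response elements. Several of its neighbours have immune or ubiquitin roles. PSME1 and PSME2 encode the subunits of the interferon-inducible proteasome activator, RNF31 is the catalytic subunit of the linear ubiquitin ligase, and NEDD8 is a ubiquitin-like modifier. REC8 is the meiotic kleisin, IPO4 a nuclear import receptor, TM9SF1 a multispanning membrane protein, MDP1 a phosphatase of the haloacid dehalogenase family and TINF2 the shelterin subunit TIN2 at telomeres.

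The sequences under the CTCF summits at the strongest sites are shown first. A CTCF core was searched as CCNNNAGNNGG on both strands within 100 bp of each CTCF summit, and the matches below stand in capitals in hg19 reference sequence, on the strand of the match.
IRF9 promoter, chr14:24630359-24630387, minus strand: aactggcggCCACTAGAGGGcagcagcat
MDP1 promoter, chr14:24685280-24685340, plus strand: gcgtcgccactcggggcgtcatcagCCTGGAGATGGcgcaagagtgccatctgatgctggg
Each of these was within 100 bp of the summit in all 4 CTCF lists, and the IRF9 match began 75 bp upstream of the gene's start. In the annotation the IRF9 match lies outside the exons of IRF9 and RNF31. An annotated UTR overlaps that match or the 25 bases on either side of it, and the MDP1 match lies in no annotated UTR. At the TINF2 promoter there was no match at any of the 4 summits. Over all CTCF summits, 39.8% to 47.4% of a list had a match, against 10.6% to 10.8% at positions 5 kb away. The matches at IRF9 and MDP1 point in opposite directions. At the EMC9 promoter, 19.7 kb upstream of IRF9, 3 matches lay within 100 bp of the summits of all 4 lists.

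Interferon response elements were searched as GAAANNGAAA on both strands in RefSeq promoters (GRCh38.p14, 250 bases before to 50 after a start), in which 9 of the 10 genes had an entry. This core stood in 3.57% of 35116 such windows, and in those of 3 of the 9 genes. The matches at PSME1 and PSME2 are shown, written in the direction of the gene. These promoters had weak peaks and none of STAG1. The promoters of REC8 and NEDD8 also had no STAG1 peak, and their windows held no match.
PSME1 promoter, chr14:24136190-24136217 (GRCh38.p14), plus strand: ccctaccgcTTTCGCTTTCccttcgcgg
PSME2 promoter, chr14:24146620-24146647 (GRCh38.p14), minus strand: ctggggagtGAAAGCGAAAgcccgggcg
The third, in the RNF31 window, is the PSME2 match read from the other strand, since the 2 genes start close together and face away from each other. The window of IRF9 held no match.

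The 16 lists had 151 peaks in the interval, which fell into 20 sites after overlapping peaks were merged. Of these, 3 sites had a peak in all 16 lists, the promoters of IRF9, MDP1 and TINF2, and 3 had a peak in 1 list. Genome-wide, 16.6% of sites were in all 16 lists, against 15% here. A peak within 1 kb of a transcript start was found in all 16 lists for 4 of the 10 genes, where RNF31 counts through a late alternative start beside the IRF9 promoter. The same was true of 33.3% of all protein-coding genes. REC8 had no promoter peak in any list, as 19.8% of all genes did. It lay in the longest stretch without a peak, 25.4 kb between a site just inside IRF9 and one in IPO4.

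**Figure D1:**
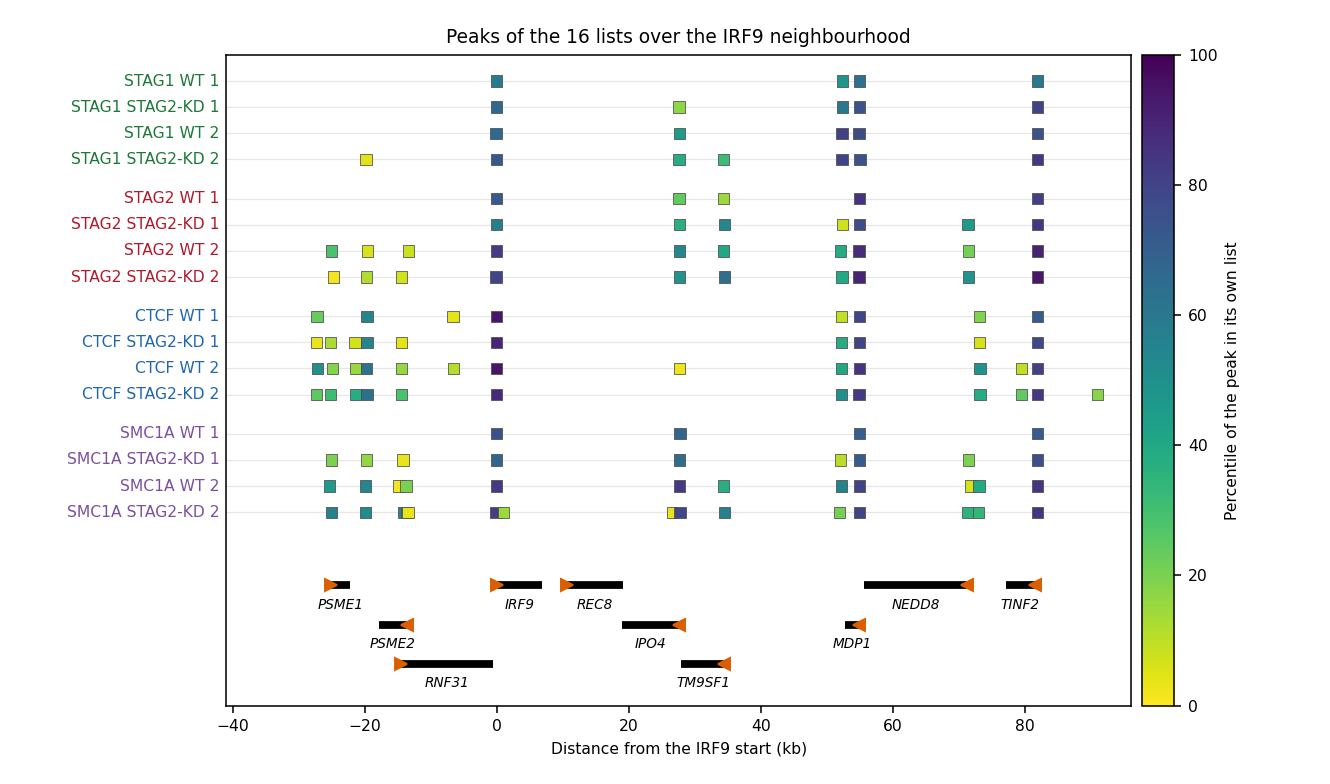
Map of the IRF9 neighbourhood, with distance from the IRF9 start in kb on the horizontal axis and 1 row per list (antibody, condition, replicate). Each square is the strongest peak of a site in that list, coloured by its percentile among the peaks of its own list (100 is the strongest). Black bars are the 10 genes, with an orange arrowhead at the start. The promoters of IRF9 (0 kb), MDP1 (54.8 kb) and TINF2 (81.9 kb) are filled in all 16 rows, and REC8 has no square over it.

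Peak strength is given in 2 ways. The percentile ranks a peak by −log10 p-value in its own list. The enrichment is the number of fragments at the summit divided by the average coverage of the library, both recovered from the deposited fold and p-value columns, and unlike the fold it does not use the local background. Intervals on it are exact Poisson 95% intervals and cover counting error only. The recovered library sizes ranged from 20.2 to 46.7 M reads in the first set and from 37.4 to 71.7 M reads in the second, so the summits of weak peaks rest on few fragments. The most fragments at a STAG2 summit here were 155, at TINF2 in WT of replicate 2.

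At the IRF9 promoter the CTCF peak was the strongest of the interval. Its enrichment was 200 (172 to 231) in WT and 186 (160 to 216) in STAG2-KD of replicate 1, and 82.8 (70.9 to 96.1) and 75.7 (64.5 to 88.3) in replicate 2. At MDP1 the CTCF enrichments were 128 in both libraries of replicate 1 and 65.0 and 64.5 in replicate 2. At TINF2 they were 113 and 119 in replicate 1, and 63.0 and 66.8 in replicate 2. CTCF was thus highest at IRF9 in 4 of 4 lists, and in replicate 1 the interval of IRF9 lay above those of both other sites.

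Both STAG subunits were lowest at IRF9 among these 3 sites. STAG2 enrichment at IRF9 was 35.2 (27.5 to 44.5) in WT and 23.3 (16.9 to 31.3) in STAG2-KD of replicate 1, and 25.2 (20.3 to 31.0) and 22.6 (18.0 to 28.0) in replicate 2. At MDP1 it was 62.4 (51.9 to 74.4) and 40.8 (32.2 to 51.0) in replicate 1, and 31.9 and 33.1 in replicate 2. At TINF2 it was 70.0 (58.8 to 82.6) and 50.3 (40.7 to 61.5), and 43.0 and 38.8 in replicate 2. STAG2 was lowest at IRF9 and highest at TINF2 in all 4 lists. The intervals of MDP1 and TINF2 overlapped in all 4 lists, and those of IRF9 and MDP1 in both lists of replicate 2, so these neighbours in the order were not told apart there.

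STAG1 enrichment at IRF9 was 25.5 (19.1 to 33.4) in WT and 35.8 (27.6 to 45.7) in STAG2-KD of replicate 1, and 18.1 and 19.9 in replicate 2. At MDP1 it was 33.7 and 50.4 in replicate 1, and 22.1 and 22.4 in replicate 2. At TINF2 it was 37.6 (29.7 to 46.9) and 66.0 (54.6 to 79.1) in replicate 1, and 25.9 and 32.1 in replicate 2. The order IRF9, MDP1, TINF2 held in 4 of 4 lists, although the intervals of neighbours in it overlapped in each list. SMC1A, the subunit of every ring, had 29.3, 24.5 and 36.2 at IRF9, MDP1 and TINF2 in WT of replicate 1, and of these 3 sites TINF2 was highest in its 4 lists. The intervals of the SMC1A values overlapped in each list.

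**Figure D2:**
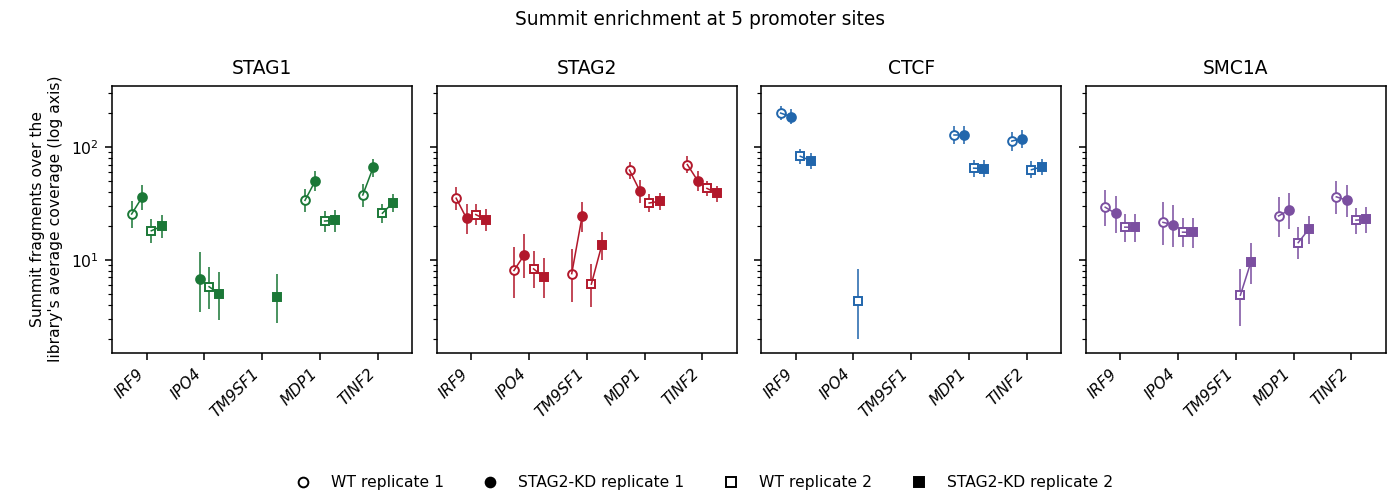
Enrichment at 5 promoter sites for each antibody, as summit fragments over the library's average coverage on a log axis. Open symbols are WT and filled symbols STAG2-KD, circles are replicate 1 and squares replicate 2, bars are exact Poisson 95% intervals, and a missing symbol means no peak in that list. CTCF is highest at IRF9, STAG1 and STAG2 are higher at TINF2 than at IRF9, and the STAG2 points of TM9SF1 go up from WT to STAG2-KD in both replicates.

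The change upon STAG2 KD was then compared at sites with a peak in all 4 lists of an antibody. Over all such sites of the genome the median log2 change of STAG1 enrichment was 0.404 in replicate 1 and 0.1 in replicate 2, and that of STAG2 was -0.399 and -0.125. That of SMC1A was 0.206 and 0.283. Changes were therefore also taken relative to these medians. In the interval STAG1 had 4 such sites, and its enrichment as measured was higher in STAG2-KD in both replicates at 4 of them, against 67.5% of 53140 sites genome-wide. Relative to the median, 2 of the 4 were higher in both and 1 was lower, against 32.2% higher and 32.2% lower genome-wide. STAG2 had 5 such sites, of which 2 were lower and 1 was higher in both replicates as measured, against 69% lower and 10.1% higher of 48898 sites. The same counts held relative to the median, where 35.8% of sites were lower and 35.8% higher.

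At IRF9 the log2 change of STAG2 was -0.60 in replicate 1 and -0.16 in replicate 2. As a ratio of STAG2-KD to WT this was 0.661 (0.443 to 0.978) and 0.896 (0.658 to 1.22), so the second interval includes no change. For STAG1 the log2 difference was 0.49 and 0.14, with ratios of 1.4 (0.960 to 2.06) and 1.10 (0.783 to 1.55). Of all STAG2 sites, 29.3% in replicate 1 and 43.4% in replicate 2 had a lower relative change than IRF9, which places it near the middle. For STAG1 these shares were 59.7% and 61.2%. SMC1A at IRF9 had log2 changes of -0.18 and -0.01, with intervals that include no change. Relative to all SMC1A sites these were -0.39 and -0.29, and 16.7% and 17.1% of sites had a lower value. The percentile of STAG2 at IRF9 was 72.3 in WT and 57.4 in STAG2-KD of replicate 1, and 82.8 and 79.7 in replicate 2. The local background in the STAG2 lists was higher in STAG2-KD there, by 0.51 and 0.20 on the log2 scale, and its part in the lower rank was not tested.

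At TINF2 rank and enrichment gave different directions for STAG2. Its percentile was higher in STAG2-KD by 2.44 points in replicate 1 and by 3.6 in replicate 2. The enrichment was lower, with log2 changes of -0.48 and -0.15 and ratios of 0.719 (0.548 to 0.940) and 0.902 (0.714 to 1.14). Between these measures stands the local background at the summit, which MACS2 takes as the expected number of fragments there. It was 5.00 fragments in WT and 1.81 in STAG2-KD of replicate 1, and 7.0 and 4.35 in replicate 2. The labels give 1 input per condition and replicate, which the 4 antibodies share, so their local backgrounds are not independent of one another. The log2 change of the local background at TINF2 was -1.46 to -1.54 in replicate 1 and -0.52 to -0.85 in replicate 2 over the 4 antibodies. Ranks at TINF2 were higher in STAG2-KD for all 4 antibodies in both replicates, and the part of the background in this was not tested.

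STAG1 at TINF2 was higher in STAG2-KD by rank and by enrichment. The log2 change was 0.81 and 0.31, with ratios of 1.76 (1.31 to 2.37) and 1.24 (0.943 to 1.63). Relative to all STAG1 sites it was 0.41 and 0.21, and 85.0% and 88.6% of sites had a lower value. The log2 difference of CTCF there was 0.07 and 0.08, and that of SMC1A -0.10 and 0.02, with intervals that include no change. Relative to all SMC1A sites that of SMC1A was -0.30 and -0.26, and 22.7% and 18.5% of sites had a lower value.

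At MDP1 the replicates disagreed. The log2 difference of STAG2 was -0.61 in replicate 1, with a ratio of 0.653 (0.485 to 0.875), and 0.05 in replicate 2, with a ratio of 1.04 (0.799 to 1.35). That of STAG1 was 0.58 and 0.02. CTCF had ratios of 0.998 (0.768 to 1.30) and 0.993 (0.778 to 1.27). The log2 change of SMC1A relative to all SMC1A sites was -0.03 and 0.10. The local background at MDP1 moved little for STAG2, by -0.08 and 0.03 on the log2 scale.

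**Figure D3:**
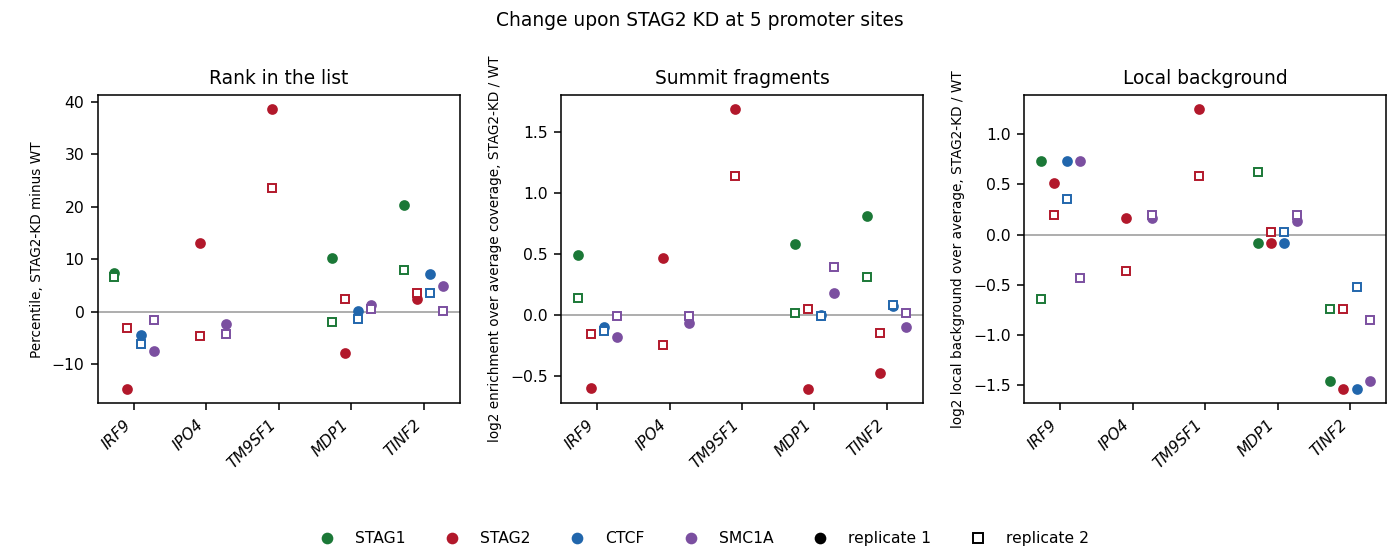
Change upon STAG2 KD at 5 promoter sites, as percentile difference (left), log2 ratio of enrichment (middle) and log2 ratio of the local background over the average (right). Colours are antibodies, filled circles replicate 1 and open squares replicate 2, and only sites with a peak in the antibody's 4 lists are drawn. At TINF2 all percentile points lie at or above 0, the STAG2 enrichment points lie below 0, and all background points lie below 0, down to -1.54.

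The largest STAG2 change of the interval was at the TM9SF1 promoter (chr14:24664394-24665258), where STAG2 was higher in STAG2-KD cells. Its enrichment was 7.55 (4.23 to 12.5) in WT and 24.4 (17.8 to 32.5) in STAG2-KD of replicate 1, and 6.10 (3.82 to 9.23) and 13.5 (9.99 to 17.7) in replicate 2. The counting intervals of the single WT and STAG2-KD libraries did not overlap in either replicate. The summits compared were not at the same base. They were at 24664726 in WT and 24664882 in STAG2-KD of replicate 1, and at 24664790 and 24664939 in replicate 2. The ratios were 3.23 (1.77 to 6.22) and 2.21 (1.31 to 3.83). Relative to all STAG2 sites the log2 change was 2.09 and 1.27, above 99.7% and 99.6% of sites. Percentiles were 14.6 and 53.2 in replicate 1, and 40.2 and 63.8 in replicate 2. No CTCF list had a peak there, STAG1 had one in STAG2-KD of replicate 2 only, and SMC1A had one in both libraries of replicate 2, with 4.87 in WT and 9.49 in STAG2-KD.

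The local background at this promoter also went up in STAG2-KD, from 1.17 to 2.76 times the average in replicate 1 and from 1.29 to 1.92 in replicate 2, and its part in the STAG2 change was not tested. Genome-wide, 2639 STAG2 sites with a peak in its 4 lists had no CTCF peak in any list. Of these, 19.8% were higher as measured in both replicates, against 8.35% of the 43216 sites with CTCF in all 4 lists. Most sites of both kinds were lower in both replicates, 56.6% of those without CTCF and 71.4% of those with it. In the interval TM9SF1 was the 1 site of the first kind, and the 3 of the second kind were IRF9, MDP1 and TINF2.

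The NEDD8 promoter, shared with GMPR2 (chr14:24701475-24702257), was another site where STAG2 was higher upon STAG2 KD. STAG2 had no peak there in WT of replicate 1 and an enrichment of 13.8 (8.99 to 20.2), from 26 fragments, in STAG2-KD. In replicate 2 it was 4.16 (2.33 to 6.86) in WT and 7.0 (4.57 to 10.3) in STAG2-KD, so the intervals overlapped. No STAG1 or CTCF peak was found at this promoter. SMC1A had a site there (chr14:24701646-24701899) in both STAG2-KD lists and in neither WT list, with 9 fragments in replicate 1 and 12 in replicate 2. A separate SMC1A peak further along was present in WT of replicate 2.

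The site at the IPO4 start (chr14:24657324-24658721) was a cohesin site with little CTCF. SMC1A had enrichments of 21.5 and 20.5 in replicate 1 and 17.6 and 17.5 in replicate 2, near those at MDP1. STAG2 had 8.05 (4.6 to 13.1) and 11.1 (6.88 to 17.0) in replicate 1, and 8.32 and 7.0 in replicate 2, with no common direction. CTCF had a peak in 1 of 4 lists, WT of replicate 2, from 9 fragments. STAG1 had a peak in 3 of 4 lists, with 4.98 to 6.71. The SMC1A ratios of 0.952 (0.507 to 1.79) and 0.992 (0.646 to 1.52) include no change. Relative to all SMC1A sites the log2 change was -0.28 and -0.29, and 23.7% and 16.9% of sites had a lower value.

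A site at the CHMP4A promoter beside MDP1 (chr14:24682111-24683685) was singled out after its values were seen. Its STAG1 enrichment was above that of STAG2 wherever both had a peak. CHMP4A encodes a subunit of the ESCRT-III membrane scission machinery. STAG1 enrichment was 16.9 (11.7 to 23.4) and 21.8 (15.5 to 29.8) in replicate 1, and 26.4 (21.6 to 31.9) and 27.1 (22 to 33) in replicate 2. STAG2 had no peak in WT of replicate 1, 6.35 (3.28 to 11.1) in STAG2-KD, and 5.27 and 6.19 in replicate 2. The log2 ratio of STAG1 to STAG2 was 1.78 in STAG2-KD of replicate 1, and 2.32 in WT and 2.13 in STAG2-KD of replicate 2. Those of replicate 2 lay above 99.8% of sites with both subunits, in each condition, and that of replicate 1 above 96.6%.

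IRF9, MDP1 and TINF2 lay on the other side of the median. In WT their log2 ratios were -0.47, -0.89 and -0.90 in replicate 1 and -0.48, -0.53 and -0.73 in replicate 2, against medians of -0.10 and -0.14 over all sites. STAG1 at the CHMP4A site was as strong as at MDP1 or TINF2 in WT of replicate 2, while STAG2 was much weaker, so the order of sites differed between the subunits in that list. SMC1A at the CHMP4A site was weak, with no peak in WT of replicate 1 and 5.62 to 7.13 elsewhere. CTCF was 8.93 and 18.7 in replicate 1 and 8.18 and 12.6 in replicate 2, with ratios of 2.1 (0.869 to 5.58) and 1.54 (0.811 to 3.02).

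**Figure D4:**
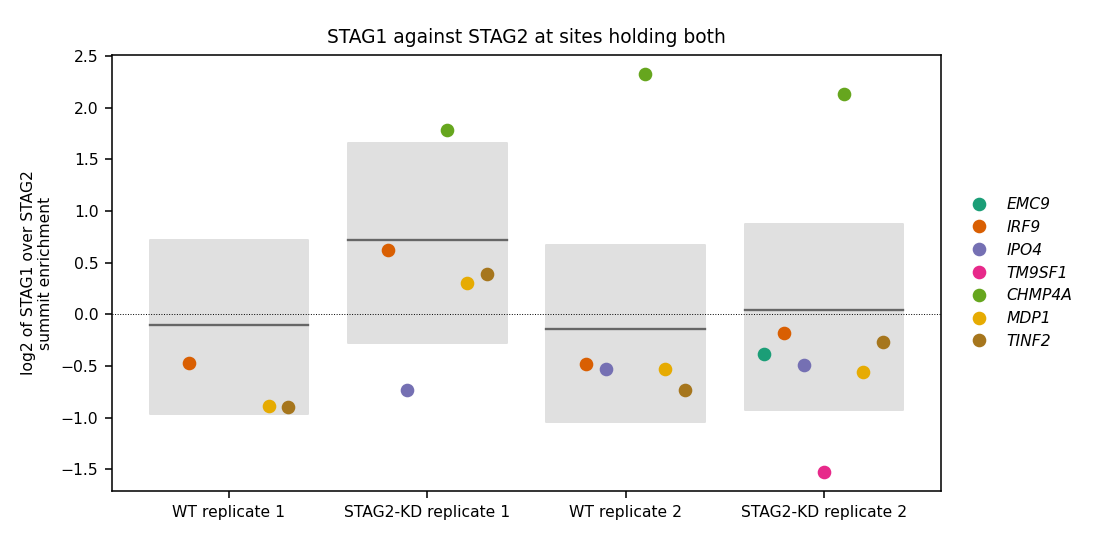
The log2 ratio of STAG1 to STAG2 enrichment at sites of the neighbourhood that hold both, in each condition and replicate. Grey boxes span the central 90% of all such sites and the grey line is their median. The CHMP4A site lies above the box in all 3 pairs of lists in which it has both, and IRF9, MDP1 and TINF2 lie below the median in all 4.

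Upstream of IRF9 the strongest peak was that of CTCF at the EMC9 promoter (chr14:24609994-24611202), where 10 lists had a peak. EMC9 encodes a subunit of the ER membrane protein complex. Its CTCF enrichment was 39.1 and 39.6 in replicate 1, and 23.6 and 23.8 in replicate 2, at percentiles of 54.5 to 63.6. The peaks at the starts of the named genes upstream of IRF9 were weaker. At the PSME1 promoter (chr14:24604877-24605773) 8 lists had a peak, none of them of STAG1, and the highest enrichment was 9.37 for CTCF in STAG2-KD of replicate 1. The shared start of PSME2 and RNF31 (chr14:24615424-24616420) had a peak in 7 lists, again with none of STAG1, and no value above 9.37. The CTCF site in RNF31, 6.6 kb upstream of IRF9 (chr14:24623655-24623890), was in both WT lists and neither STAG2-KD list. It rested on 7 fragments in replicate 1 and 9 in replicate 2, at percentiles 4.22 and 11.0. Such a site lies close to the threshold of its list. A CTCF site 27.2 kb upstream, with no other antibody, had 12.3 and 7.29 in replicate 1 and 11.1 and 5.61 in replicate 2, with ratios of 0.594 (0.195 to 1.68) and 0.507 (0.230 to 1.06).

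Peak numbers in the interval, WT against STAG2-KD, were 5 and 5 in replicate 1 and 5 and 8 in replicate 2 for STAG1, 5 and 7, and 11 and 10 for STAG2, 9 and 11, and 14 and 13 for CTCF, and 5 and 11, and 15 and 17 for SMC1A. The log2 ratio was 0.34 ± 0.48 (SD, n = 2) for STAG1 peaks and 0.17 ± 0.44 for STAG2 peaks. It was 0.09 ± 0.28 for CTCF peaks and 0.66 ± 0.68 for SMC1A peaks. Each was smaller than the spread between replicates. The ratios of the whole lists were 0.26, -0.30, -0.02 and 0.09.

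A peak of one condition without overlap in the other was called lost or gained. Of the STAG1 peaks here 1 of 5 and 0 of 5 were lost in replicates 1 and 2, against 6.42% and 13.6% of the whole lists, and 1 of 5 and 3 of 8 were gained, against 31.7% and 18.6%. Of the STAG2 peaks 0 of 5 and 1 of 11 were lost, against 32.2% and 22.1%, and 2 of 7 and 1 of 10 were gained, against 6.62% and 12%. For CTCF 1 of 9 and 2 of 14 were lost, against 12.3% and 16.9%, and 4 of 11 and 1 of 13 were gained, against 15.1% and 12.1%. For SMC1A 1 of 5 and 2 of 15 were lost, against 19.1% and 25.8%, and 7 of 11 and 4 of 17 were gained, against 28.6% and 29.7%. The one STAG2 peak lost was a weak one at the RNF31 start, and no STAG2 peak of IRF9, MDP1 or TINF2 was lost. With 1 exception, an SMC1A peak at TINF2 at percentile 50.6, every peak lost or gained here was weaker than the median of its list.

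Changes in both replicates were rare. CTCF lost 1 of 15 sites in both, against 1.78% genome-wide, which was the site in RNF31, and SMC1A gained 1 of 17, against 2.27%, which was the site at NEDD8. For the rest the count was 0: STAG1 lost (0.687% genome-wide) and gained (3.91%), STAG2 lost (2.68%) and gained (0.296%), CTCF gained (1.13%) and SMC1A lost (1.13%).

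By percentile, STAG1 was higher in both replicates at 2 of 4 sites and lower at 0, against 56.6% and 11.1% genome-wide. STAG2 was higher at 2 of 5, TM9SF1 and TINF2, and lower at 1, IRF9, against 12.4% and 60.4%. CTCF was higher at 3 of 7 and lower at 3, against 29.5% and 37.5%. SMC1A was higher at 2 of 4 and lower at 2, against 39.7% and 29.5%. For 15 promoter peaks the percentiles of 2 WT and 2 STAG2-KD libraries were set against each other in an exact permutation test (two-sided), which cannot give a p below 0.33. Labels were permuted across replicates, so the pairing within a replicate was not used. The test gave 0.33 for STAG1 at IRF9 and TINF2, CTCF at IRF9 and STAG2 at TM9SF1, and 0.667 or 1 for the others, with Benjamini-Hochberg adjusted values of 0.91 or 1.

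The genes that work with these were read at their own promoters, from lists of interferon signalling, proteasome, linear ubiquitin, shelterin, kleisin and NEDD8 pathway genes. Of 27 such genes, 9 had a promoter site in all 16 lists, beside 33.3% of all protein-coding genes, and 1, PSMB8, a catalytic subunit of the immunoproteasome, had none. STAG1 had a peak in its 4 lists at 16 of these sites, with enrichment as measured higher in both replicates at 11, beside the 67.5% of all STAG1 sites, and lower at 0. STAG2 had one at 14, lower in both at 5 and higher at 3, beside 69% lower and 10.1% higher over all STAG2 sites. With so few sites nothing is read from these counts. The 3 were SHARPIN, a partner of RNF31 in the linear ubiquitin ligase, at 1.12 and 0.81 on the log2 scale, UBA3, in the NEDD8-activating enzyme, at 0.47 and 0.45, and UBE2M, a NEDD8-conjugating enzyme, at 0.27 and 0.01. RAD21, the kleisin of mitotic cells, had -0.89 and -0.43. STAT2 had a peak in 15 lists and JAK1, a kinase of the interferon pathway, in all 16, with STAG2 at -0.15 and -0.28.

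Among 37206 sites with a peak in all 16 lists, the promoters most like that of IRF9 in their 16 percentiles were those of TSTD3 and USP45, ZC3H7A, and CENPO and PTRHD1. Their mean absolute differences from IRF9 were 2.62, 2.66 and 2.96 percentile points.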

How the data were processed

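ChIP-seq peak lists of 4 antibodies in WT and STAG2-KD M14 cells were used, with 2 replicates each. Inputs were used here only through the lists. Per the study's methods the authors aligned reads to hg19, removed low-quality and duplicate reads and called peaks with MACS2 against input, 1 list per library. For replicate 2 the submitters' processing notes name BWA and CASAVA 1.4, where those of replicate 1 name Bowtie2. The deposited columns are a whole-number score, a fold enrichment (a ratio of summit pileup to local background), and the significance of the peak as −log10 p-value and, adjusted, as −log10 q-value. Lists of replicate 1 were limited at −log10 q of 2 and those of replicate 2 at −log10 p of 2. Lists were thus compared within a replicate.

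Peaks outside chromosomes 1 to 22, X and Y were dropped. Sites were the union of the 16 lists, merged at 1 bp of overlap, and peaks within 1 kb of an annotated transcript start were assigned to promoters. Summit fragments and local background were solved from the fold and p-value columns, and 99.9925% or more of the pileups in a list came out whole within 0.02 fragments. Read numbers assume 2.7 Gb of genome and take the width of the narrowest peak as fragment length. The steps were tested on 5 simulated lists. Bounds were taken from GENCODE v44lift37 and sequences from GRCh37, with RefSeq promoters of GRCh38.p14. Python 3.11.15, numpy 2.4.6, pandas 2.3.3 and scipy 1.17.1 were used.

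The genes, gene lists and tests were chosen with earlier results of these data known. Named were the 10 genes, their promoter sites, sites in all 16 lists, sites lost or gained in both replicates, the partner lists, of which 1 gene is not reported here, and the 3 promoters most like that of IRF9. Alternatives were each replicate left out, −log10 q of at least 5, no flank, the strongest 50% of peaks, 50% overlap, ranks by fold and a replicate block. Enrichment without centring was added after the data were seen.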

Additional observations from a re-analysis of the deposited data

Results flagged for a closer look

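At 2 of the 3 sites here with both antibodies in all of their lists, the STAG1 and STAG2 enrichments, relative to all sites of each antibody, lay on opposite sides of 0 in both replicates. At IRF9 the relative log2 difference of STAG2-KD to WT was 0.08 and 0.04 for STAG1 and -0.20 and -0.03 for STAG2, a mean gap of 0.18. At TINF2 it was 0.41 and 0.21 for STAG1 and -0.08 and -0.02 for STAG2, a mean gap of 0.36. Genome-wide, 15.7% of 43725 such sites lay on opposite sides in both replicates. This share pools both directions, 4332 sites with STAG1 above and STAG2 below, as here, and 2517 with the reverse. The difference between the antibodies was not tested. With the median of all sites subtracted, the counting interval of each of these values includes 0.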

How the results depend on the processing

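Of the results under the alternatives, 143 were called the same, 37 moved and 19 changed sign, and the cause was not tested. For peak numbers, percentiles at shared sites and enrichment, the same meant a change smaller than the replicate SD. For percents lost or gained it meant a change within a fixed factor, and for single promoter peaks an unchanged sign only. For example, the percentile difference of STAG2 at TINF2 went from 3.02 to 12.4 by fold ranks. The 143 also include the replicate block, which cannot change a mean. Among the 143, the log2 peak number ratio of STAG1 went from 0.34 to 0.00 without replicate 2, at −log10 q of at least 5 and without the flank, so it has no direction there. That of SMC1A, also among the 143, went from 0.66 to 0.05 at −log10 q of at least 5. At that limit replicate 1 had 5 SMC1A peaks in WT and 4 in STAG2-KD. Leaving out each replicate gave log2 peak number ratios of -0.14 to 0.49 for STAG2 and -0.11 to 0.29 for CTCF, and without the flank that of CTCF was -0.02. The percent of peaks lost, both replicates pooled, was 10, 6.25, 13 and 15 in the order STAG1, STAG2, CTCF, SMC1A, and of those gained 30.8, 17.6, 20.8 and 39.3. With 1 replicate left out these ran from 0 to 20 for STAG1 lost, 20 to 37.5 for STAG1 gained, 0 to 9.09 for STAG2 lost, 10 to 28.6 for STAG2 gained, 7.69 to 36.4 for CTCF gained and 23.5 to 63.6 for SMC1A gained. At −log10 q of at least 5, STAG1 lost and gained and STAG2 lost were 0, CTCF lost was 20 and SMC1A gained was 25. Among the strongest 50% of peaks SMC1A lost was 9.09 and the other 7 shares were 0. At 50% overlap STAG1 lost was 20 and STAG2 lost 12.5.

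The median percentile difference at shared sites was 2.41 for STAG2, -0.578 for CTCF and -0.689 for SMC1A. At −log10 q of at least 5 these were -1.05, 0.576 and 1.53, and with ranks by fold 5.75, 0.437 and -0.472. For CTCF it was 2.38 without the flank and -1.34 to 0.186 with 1 replicate left out. At MDP1 the percentile difference with 1 replicate left out was -1.99 to 10.2 for STAG1, -7.99 to 2.39 for STAG2 and -1.34 to 0.186 for CTCF, which was 0.844 by fold ranks. For STAG2 at IPO4 it was -4.69 to 13. For STAG2 at TM9SF1 the mean percentile difference went from 31.1 to 20.4 by fold ranks. Its peak in WT of replicate 1 had a −log10 q of 4.52, so this promoter has no value at −log10 q of at least 5.

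Relative log2 enrichment with 1 replicate left out was at MDP1 -0.08 to 0.17 (STAG1), -0.22 to 0.18 (STAG2), -0.01 to 0.01 (CTCF) and -0.03 to 0.10 (SMC1A), and -0.12 to 0.86 for STAG2 at IPO4. Without centring, chosen after seeing the data, the mean at IRF9 was 0.31 (STAG1), -0.38 (STAG2), -0.11 (CTCF) and -0.10 (SMC1A). It was 0.30 for STAG1 and 0.28 for SMC1A at MDP1, 0.56 for STAG1, -0.31 for STAG2 and -0.04 for SMC1A at TINF2, and -0.04 for SMC1A at IPO4.

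A block for the replicate number leaves the means the same by construction, so this alternative tests nothing about them. They were 0.34 for the STAG1 and 0.17 for the STAG2 peak number, 6.96 for STAG1 at IRF9 and 31.1 for STAG2 at TM9SF1. The exact sign-flip p of a pair was 0.5 or 1, the smallest possible being 0.5, so no call could change. Replicate numbers mark sets that were prepared and called differently. Peaks at 7 to 12 fragments lie near the threshold, so their absence from a list does not show absence of binding.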
